A study of Mus musculus with 26 samples.

Results

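The 10 mouse genes described here are the early transcription factor genes Fos, Jun, Egr1, Atf3 and Myc, the stress-inducible gene Gadd45b, the growth factor gene Hgf, the receptor genes Met and Egfr, and the cell division factor gene Foxm1. They were chosen by name, as early signals and growth signals of the hepatocyte, the main cell of the liver. All 10 were found once each among the 47643 genes of the deposited table, and all 10 passed the filter on low counts in each of the 5 comparisons. The study sequenced liver messenger RNA from 26 mouse samples in 10 groups, and each treated group has its own control group.

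In the drug experiment, wild-type C57BL/6J mice of 8 weeks, fed ad libitum, received corn oil (n = 2) or TCPOBOP (n = 2), an agonist of the nuclear receptor CAR. The sample titles place the TCPOBOP livers 36 hours after injection, whereas the source names say 6 hours, and the difference could not be settled here. In the genotype experiment, Fxr-/- Shp-/- mice (n = 3), which lack a bile acid receptor and the repressor it induces, were compared with wild-type mice (n = 3), all C57BL/6J, 12 weeks old and fed ad libitum. In the surgery experiment, C3H/HeN mice of 8-10 weeks, fed ad libitum, were taken at 0 hour after sham surgery (n = 3) or 48 hours after partial hepatectomy (n = 3). The genotype of the C3H/HeN mice is not named. Operation and time after surgery differ together between these groups and cannot be told apart. In the diet experiment on isolated hepatocytes, wild-type C57BL/6J mice of 16 weeks received chow (n = 2) or a diet with 60% fat (n = 2) and were fasted for 10 hours. In the bile acid experiment, C57BL/6J mice with floxed alleles of both genes, fl/fl Fxr fl/fl Shp, received chow (n = 3) or a cholic acid diet (n = 3). They were 10-12 weeks old and fasted for 8-10 hours, and no Cre recombinase is named for them. All samples other than the isolated hepatocytes were whole liver. The labels do not say that replicates came from separate mice, so the p-values measure the spread between these samples, which may be technical.

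Immediate early genes are transcribed within minutes of a growth or stress signal without new protein synthesis, and Fos, Jun, Egr1, Atf3 and Myc belong to this class. FOS and JUN pair to form the AP-1 transcription factor, and in the liver these genes are known for responding to surgery, to stress and to the digestion of tissue that frees hepatocytes. HGF, made in the liver mainly by stellate and endothelial cells, binds the receptor MET on hepatocytes, and EGF-family ligands bind EGFR. Both receptors signal through the MAP kinases to entry into the cell cycle, and FOXM1 drives the genes of mitosis later in that sequence.

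Libraries held 13949059 to 70367874 reads counted in genes, and 23.0% to 48.6% of all reads in a library were assigned to no gene. Levels are given as CPM, read counts of a gene relative to its library's size, after TMM scaling over all 26 libraries, and a count of 3 corresponded to between 0.0426 and 0.215 CPM. Nr0b2, which encodes SHP, was at 0.563 to 1.59 CPM in the double knockout livers and 13.3 to 26.8 CPM in the wild-type livers. Nr1h4, which encodes FXR, was at 52.9 to 61.5 against 114 to 153 CPM, so reads were still counted in the deleted gene. The library labelled corn oil 1 went against its label: the CAR target Cyp2b10 was at 3672 CPM there, 10.0 CPM in corn oil 2 and 2976 to 3419.9 CPM in the TCPOBOP libraries. Albumin and the other 9 hepatocyte markers were detected in all 10 groups, and no list of markers of another liver cell type was at 0 as a whole. In the chow hepatocytes 3 of 10 leukocyte markers (Cd79a, Ms4a1, Nkg7) and 3 of 8 cholangiocyte markers (Krt19, Epcam, Cftr) had no count. The library flox chow 3 stood apart in early genes: 7 of the 10 members, 24 of 40 other immediate early genes and 2 of 12 heat shock genes were at least 2-fold above both other libraries of its group, against 6.54% of 12181 genes with a mean CPM of at least 1. Hepatectomy 3 was at least 2-fold above its group for 3 of 10 members, 8 of 40 other immediate early genes and 0 of 12 heat shock genes, against 1.19% of the same genes.

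The promoters of 4 members are printed because 3 of these genes (Fos, Jun and Atf3) were all high in the hepatocyte libraries and in flox chow 3. These 3 genes did not always go together. In the double knockout livers Fos and Atf3 rose and Jun was not called. Gadd45b followed another pattern. Each window is the 150 bases just upstream of the RefSeq transcript start, from GRCm38.p6, written 5′ to 3′ on the gene's own strand. Capitals mark TGACG (the core of a cyclic AMP response element, on either strand), TGACATCA (an AP-1 type site), TATAAA and CCAAT.
Fos, chr12:85473740-85473889, plus strand: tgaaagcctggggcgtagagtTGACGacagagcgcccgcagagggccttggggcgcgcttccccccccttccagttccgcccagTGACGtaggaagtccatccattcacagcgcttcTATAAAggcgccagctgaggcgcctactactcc
Jun, chr4:95052223-95052372, minus strand: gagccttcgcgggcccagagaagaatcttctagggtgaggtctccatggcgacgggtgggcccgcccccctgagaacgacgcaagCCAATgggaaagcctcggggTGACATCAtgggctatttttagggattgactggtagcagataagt
Atf3, chr1:191183334-191183483, minus strand: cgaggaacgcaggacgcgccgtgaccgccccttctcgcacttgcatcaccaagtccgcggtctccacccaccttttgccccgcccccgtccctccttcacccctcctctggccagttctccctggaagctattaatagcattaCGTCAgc
Gadd45b, chr10:80929941-80930090, plus strand: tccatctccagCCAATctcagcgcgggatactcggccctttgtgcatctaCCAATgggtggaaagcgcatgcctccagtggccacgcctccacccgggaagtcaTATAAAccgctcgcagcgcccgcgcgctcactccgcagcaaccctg
Fos held TGACG at -129 to -125 and at -66 to -62 and TATAAA at -33 to -28, counted back from the transcript start. Jun held TGACATCA at -45 to -38 and CCAAT at -65 to -61. Atf3 held TGACG on the opposite strand at -7 to -3, in a window upstream of the start inside the gene rather than of its most distal one. Gadd45b held CCAAT at -139 to -135 and -100 to -96 and TATAAA at -46 to -41. Over 32817 promoter windows of the same length, TGACG was found on either strand in 13.3%, TGACATCA in 2.32%, TATAAA in 7.58% and CCAAT in 24.5%. The full element TGACGTCA, which contains TGACG, was in 1.36% of windows and in none of the 7 members with a window. The AP-1 site TGAGTCA was in 2.84% of windows and, among the members, in Met at -54 to -48. CACGTG, an E-box, was in 4.30% of windows and, among the members, in Met at -126 to -121. GGGCGG, a GC box, was in 28.6% of windows and in those of Jun, Fos, Met, Egfr and Atf3. The CArG box was in 0.917% of windows and in no member's window. Windows were matched for Jun, Fos, Gadd45b, Met, Egfr, Hgf and Atf3. No window was read for Myc, Egr1 and Foxm1, so whether their promoters hold these motifs was not tested.

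The genes lie on GRCm38 (GENCODE M21) at chr12:85473890-85477273 (Fos, plus strand), chr4:95049034-95052222 (Jun, minus), chr18:34859823-34864984 (Egr1, plus), chr1:191170296-191218039 (Atf3, minus), chr15:61985391-61990374 (Myc, plus), chr10:80930073-80932204 (Gadd45b, plus), chr5:16553495-16620152 (Hgf, plus), chr6:17463800-17573980 (Met, plus), chr11:16752203-16918158 (Egfr, plus) and chr6:128362967-128376146 (Foxm1, plus). All are protein coding. Jun shares exon sequence with the antisense gene Junos, which had at most 24 counts in a library. Hgf overlaps Gm43489, which had at most 13, and Foxm1 overlaps Tex52 and Gm44596, which had 0.

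Counts of members called in each comparison, at an edgeR quasi-likelihood adjusted p under 0.05 (Benjamini-Hochberg over all genes tested), are read against the share of all tested genes called. In the double knockout livers 7 of 10 members were called, against 40.4% of 13473 genes. Fos, Egr1, Atf3, Myc and Foxm1 rose, 5 of 10 against 21.0% of all genes, while Egfr and Met fell, 2 of 10 against 19.4%. The double knockout and wild-type libraries did not overlap for the same number of members, 5 above and 2 below, and that was so for 53.7% of all genes tested. After partial hepatectomy 3 of 10 members were called, against 30.7% of 13753 genes: Foxm1 rose (16.4% of genes were called higher), and Myc and Atf3 fell (14.3% lower). In hepatocytes of mice on the high fat diet 4 of 10 were called, against 24.0% of 13892 genes: Hgf rose (12.9% higher), and Myc, Egfr and Egr1 fell (11.1% lower). On the cholic acid diet 3 of 10 were called, against 4.77% of 12577 genes: Gadd45b and Foxm1 rose (2.27% higher), and Egfr fell (2.50% lower). No member was called after TCPOBOP, where 0% of 12785 genes passed the edgeR threshold, 751 had an unadjusted p under 0.05 and DESeq2 called 91. In that experiment 1 member lay above and 3 lay below all corn oil libraries, and 34.8% of all tested genes did not overlap. The members' median log2 fold change was 1.16 in the double knockout comparison, -0.48 after hepatectomy, -0.34 on the high fat diet, 0.16 on cholic acid and -0.21 after TCPOBOP, while that of all genes tested lay between -0.02 and 0.01.

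**Figure D1:**
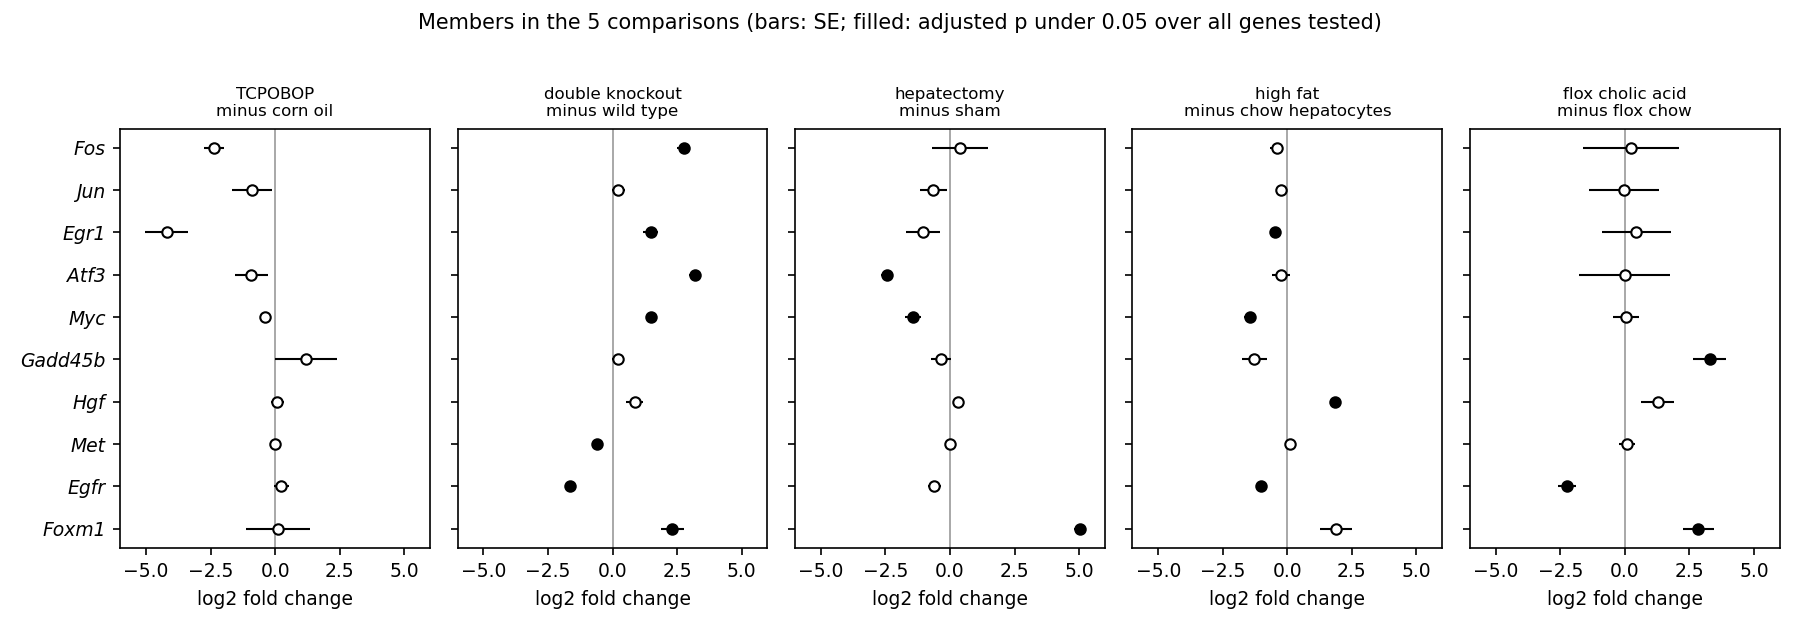
Log2 fold change of each member (rows) in each comparison (panels), treated minus control, with bars of 1 standard error and filled symbols for an edgeR adjusted p under 0.05. Foxm1 was called higher in 3 panels and Egfr lower in 3, and the bars of Fos, Jun, Egr1 and Atf3 are widest in the cholic acid panel, with standard errors of 1.34 to 1.87.

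Levels differed widely between the members. Divided by exon length, to compare genes, the wild-type livers held 34.7 CPM per kilobase of Egfr, 12.7 of Met, 11.4 of Jun, 6.59 of Gadd45b, 2.64 of Egr1 and 2.6 of Myc. On the same scale Hgf was at 0.973, Fos at 0.382, Atf3 at 0.371 and Foxm1 at 0.0257. In the wild-type livers the receptors were thus the most abundant members per length and Foxm1 the least. That order did not hold in every group. In the chow hepatocytes Jun was at 153, Fos at 134 and Egfr at 76.4 CPM per kilobase. In whole liver and in cell preparations alike, fewer cells of a type and less RNA per cell cannot be told apart.

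Fos, Jun and Egr1 were higher in the isolated hepatocytes than in every whole-liver control library. Fos, which encodes one partner of AP-1, was at 402 and 227 CPM in the chow hepatocytes and 226 and 255 CPM in the high fat hepatocytes. In the 11 whole-liver control libraries its median was 2.42 CPM, with a lowest value of 0.203 and a highest of 109 CPM, in flox chow 3. The lowest hepatocyte library was above that highest control. Jun, the other partner, was at 509 and 469 CPM in the chow hepatocytes and 443 and 409 CPM in the high fat hepatocytes, where the whole-liver controls had a median of 43.4 and a highest value of 405 CPM. Egr1, a zinc finger factor induced by MAP kinase signalling, was at 340.0 and 379 CPM and 277 and 243 CPM, against a whole-liver median of 15.3 and a highest value of 239.9 CPM. Atf3, a stress-induced member of the ATF family, was at 84.3 and 37.1 CPM and 55.1 and 48.8 CPM, and the highest whole-liver control, flox chow 3 at 133 CPM, was above all 4 of these. Atf3 therefore overlapped through flox chow 3, whereas the other 3 factors did not overlap.

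Both chow hepatocyte libraries were above every whole-liver control library for 4 of 10 members (Jun, Fos, Egr1 and Met). They were below every such library for 1 member, Hgf. Of 12181 genes 1516 (12.4%) lay above and 1336 below. Among 40 other immediate early genes 14 lay above and 4 below, and none of 12 heat shock genes did either. The counts below, for members and early genes, were near the share of all genes. The summed level of the list of 47 other immediate early genes was 3761 to 3964 CPM in the chow hepatocytes and 3085 to 3390.2 CPM in the high fat hepatocytes. In the whole-liver groups other than the bile acid experiment it was 807 to 1871 CPM. Tissue, the isolation of the cells, strain (the sham mice were C3H/HeN), fasting, age and diet differ between these experiments and cannot be told apart.

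In 3 of the 6 whole-liver libraries of the bile acid experiment the same factors were high. Fos was at 0.444, 0.203 and 109 CPM in flox chow 1, 2 and 3 and at 116, 1.02 and 11.9 CPM in cholic acid 1, 2 and 3. Jun was at 13.4, 12.3 and 405 CPM and 254, 14.1 and 149.9 CPM in the same order. Flox chow 3, cholic acid 1 and cholic acid 3 were high for both genes, and the other 3 libraries were low. For both genes all 6 stayed below the lowest hepatocyte library. Egr1 was at 12.1, 11.9 and 239.9 CPM on chow and 279, 8.14 and 71.1 CPM on cholic acid, and Atf3 at 1.11, 1.08 and 133 CPM and 9.79, 2.05 and 121 CPM. The same 3 libraries stood highest for these genes as well, although Atf3 in cholic acid 1 was only 9.79 CPM. The summed level of the other immediate early genes followed, at 902, 1084 and 3732 CPM on chow and 2820.1, 1302 and 4056 CPM on cholic acid.

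**Figure D2:**
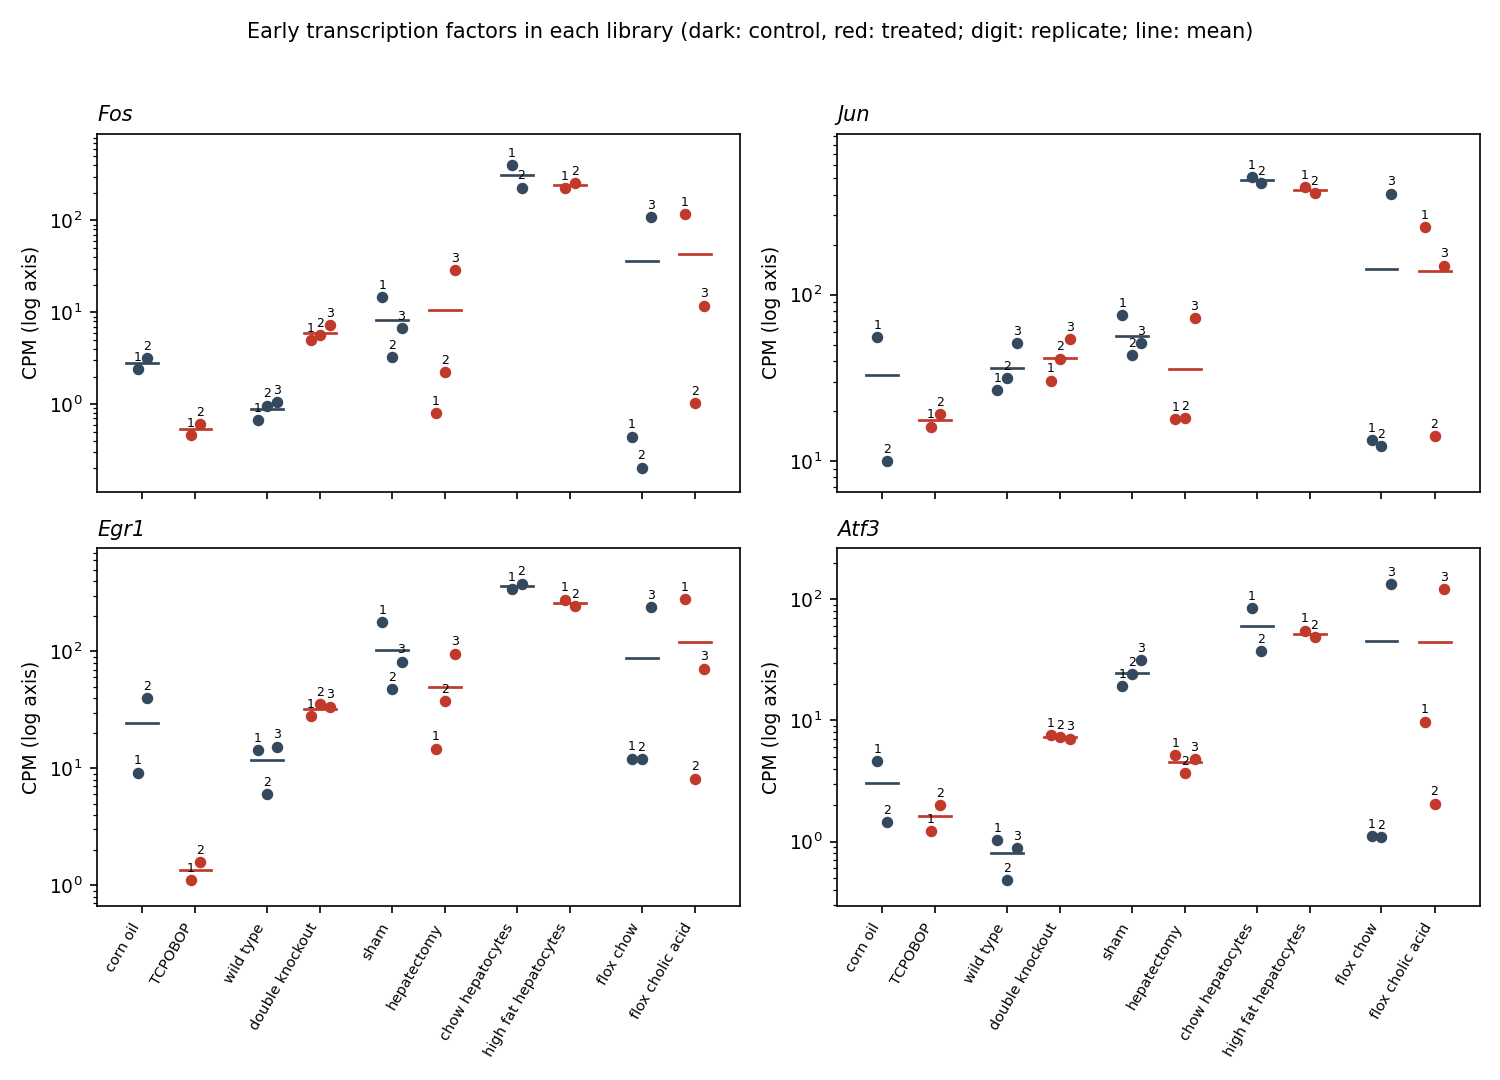
Levels of Fos, Jun, Egr1 and Atf3 (CPM, log axes) in each of the 26 libraries by group, with the replicate number beside each point and the group mean as a line. All 4 hepatocyte libraries are high for the 4 genes, and in the bile acid experiment flox chow 3 lies far above flox chow 1 and 2, with Fos at 109 CPM against 0.444 and 0.203 CPM.

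With that spread, the cholic acid comparison did not resolve these genes. The log2 fold change was 0.24 ± 1.87 for Fos, -0.04 ± 1.35 for Jun, 0.44 ± 1.34 for Egr1 and -0.01 ± 1.75 for Atf3, and none was called by edgeR (adjusted p = 0.872 to 0.998). The approximate 95% interval for Fos ran from -3.42 to 3.90, so a large fall and a large rise both lie inside it. Without flox chow 3 the Fos value became 7.04 and that of Atf3 5.34, still not called (edgeR adjusted p = 0.0838 and 0.0994). That library was singled out because early genes were high in it, so higher values without it are no separate result. Over all fits that left out 1 library, values ran from -2.47 to 7.04 for Fos and from -2.90 to 5.34 for Atf3. They ran from -1.12 to 3.31 for Egr1 and from -0.78 to 3.44 for Jun. Of the other immediate early genes 1 of 42 tested rose on cholic acid (Ier5, 1.16) and none fell, with a list median of 0.45. Of all genes 2.27% rose and 2.50% fell. Without flox chow 3, 7 of 42 of these early genes rose, with a median of 1.59, and the same limit holds. Without that library 10.4% of 12958 genes were called and 5 of 10 members. Of 8 Kupffer cell markers 6 then rose, against 1 with it, and their part in these results was not tested.

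In the double knockout livers Fos, Atf3 and Egr1 rose, while Jun was not called. Fos was at 0.671, 0.963 and 1.06 CPM in wild-type livers and 4.98, 5.65 and 7.24 CPM in double knockout livers. The groups did not overlap, and the mean was 6.63-fold higher (log2 fold change 2.75 ± 0.25, edgeR adjusted p = 8.41e-05). Atf3 was at 1.03, 0.481 and 0.882 CPM and 7.58, 7.28 and 7.07 CPM, with a mean 9.15-fold higher (3.19 ± 0.25, edgeR adjusted p = 3.05e-05). The 3 knockout values of Atf3 ranged from 7.07 to 7.58 CPM, all above the wild-type values. Egr1 was at 14.2, 6.02 and 15.3 CPM and 28.1, 35.6 and 33.6 CPM, a 2.74-fold difference without overlap (1.47 ± 0.28, edgeR adjusted p = 0.00347). Jun was at 26.7, 31.4 and 51.2 CPM and 30.4, 41.3 and 54 CPM, which overlap, and was not called (0.23 ± 0.26, interval -0.28 to 0.74, edgeR adjusted p = 0.508). Of the other immediate early genes 21 of 42 tested rose and 4 fell, with a list median of 0.44. In this comparison 21.0% of all genes rose and 19.4% fell. Among those that rose were Klf6 (2.54), a zinc finger factor, Btg2 (2.46), an antiproliferative gene, and Dusp5 (2.03), a MAP kinase phosphatase. Cebpb (-1.50), Zfp36 (-1.20) and Ier2 (-1.19) were among those that fell. Markers of other cell types also differed between these livers. Of the stellate cell and fibroblast markers 9 of 12 rose and 1 fell, with sums of 333 to 529 CPM in wild-type and 571 to 652 CPM in double knockout livers. Of the cholangiocyte markers 5 of 8 rose (39.2 to 54 and 70.3 to 146 CPM) and of the endothelial markers 3 of 10 (126 to 246 and 209 to 317 CPM), and none of either fell. Of the leukocyte markers 1 of 5 tested rose, S100a8 (5.07), a gene of neutrophils, with sums of 8.06 to 13.8 and 18 to 38 CPM. The Kupffer cell markers (1 of 8 higher, 1 lower) summed to 193 to 434 and 275 to 576 CPM. Of the hepatocyte markers 6 of 10 fell and none rose, with sums of 95574 to 125976 and 63437 to 86008 CPM. No marker of these lists was at 0 in every library of either group, and the part of these cells in the results for any member was not tested. Reads assigned to no gene made up 47.6% to 48.6% in wild-type and 32.1% to 33.6% in double knockout libraries, and the part of this in the results was not tested. Fitted with all 26 libraries, which share 1 estimate of the spread, Fos, Egr1 and Atf3 kept their sizes (2.74, 1.45 and 3.17) but were not called (edgeR adjusted p = 0.268, 0.303 and 0.127).

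After partial hepatectomy Atf3 fell, and Fos, Jun and Egr1 were not called. The sham livers were taken at 0 hour and the hepatectomy livers at 48 hours, so operation and time after surgery cannot be told apart. Atf3 was at 19.2, 24.1 and 31.3 CPM in sham and 5.15, 3.68 and 4.78 CPM in hepatectomy livers, 5.48-fold lower without overlap (-2.45 ± 0.21, edgeR adjusted p = 0.000119). In the fit of all 26 libraries its size was -2.45 and it was not called (edgeR adjusted p = 0.152). Fos was at 14.6, 3.24 and 6.68 CPM and 0.797, 2.23 and 28.9 CPM, and the groups overlapped, with the highest value of all 6 libraries in hepatectomy 3 (0.39 ± 1.09, interval -1.74 to 2.53, edgeR adjusted p = 0.815). Jun, at 75.2, 43.4 and 51.2 CPM and 17.9, 18.1 and 72.1 CPM, and Egr1, at 179, 47.7 and 81.8 CPM and 14.7, 37.8 and 95.5 CPM, showed the same library standing apart, and neither was called (-0.65 ± 0.52 and -1.05 ± 0.66). Without hepatectomy 3, Jun (-1.66), Fos (-2.43) and Egr1 (-1.97) were each lower and called (edgeR adjusted p = 0.0011, 0.0282 and 0.036), so that 6 of 10 members passed, against 30.2% of 13973 genes. That library was singled out because early genes were high in it, so lower early genes without it are no separate result. The sham level itself was high: Atf3 and Egr1 in sham livers (19.2 to 31.3 and 47.7 to 179 CPM) were above all wild-type and corn oil livers. In flox chow 3 Atf3 (133 CPM) and Egr1 (239.9 CPM) were higher still. The sham mice were C3H/HeN and the other control mice C57BL/6J. Of the other immediate early genes 17 of 42 fell and 1 rose, with a list median of -0.61. In this comparison 14.3% of all genes fell and 16.4% rose. Igfbp1 (-3.13), an early gene of the regenerating liver, Nr4a1 (-2.05), an orphan nuclear receptor, and Dusp1 (-1.74) were among those that fell, and Ier5 rose (1.16). Without hepatectomy 3 the counts were 22 lower and 1 higher, with the same limit. In the same comparison 5 of 10 hepatocyte and 3 of 10 endothelial markers fell and 3 of 12 stellate cell and fibroblast markers rose (1 fell), and their part in these results was not tested.

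In hepatocytes 1 of the 4 factors was called between the diets. Egr1 was 1.39-fold lower on the high fat diet, without overlap (-0.50 ± 0.10, edgeR adjusted p = 0.0235), and the call was lost without chow hepatocytes 2 (-0.43, adjusted p = 0.0557) or without high fat hepatocytes 2 (-0.42, 0.0825). It was also lost in the fit of all 26 libraries (-0.47, adjusted p = 0.861). Jun (-0.23 ± 0.09), Fos (-0.42 ± 0.26) and Atf3 (-0.25 ± 0.36) were not called by edgeR (adjusted p = 0.131, 0.284 and 0.635). Without chow hepatocytes 2 Fos (-0.78) and Atf3 (-0.74) were called. A fit without 1 of these 4 libraries has a lone library in one group, so its spread comes from the other pair alone and the lone library is assumed to vary like that pair. Of the other immediate early genes 7 of 44 rose and 10 fell, against 12.9% and 11.1% of all genes. Klf4 (1.85), Klf2 (1.60) and the kinase gene Sgk1 (1.19) were among those that rose. The kinase gene Pim1 (-1.70), Klf10 (-1.59) and Maff (-1.33) were among those that fell. Markers of stellate, endothelial and Kupffer cells were also higher in these high fat preparations, at the levels given with Hgf, and their part in the results for Egr1, Myc and Egfr was not tested.

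After TCPOBOP, Egr1 was at 1.1 and 1.58 CPM, and in corn oil 1 and 2 it was at 9.2 and 40.1 CPM. Fos was at 0.464 and 0.607 CPM after TCPOBOP and at 2.42 and 3.17 CPM in corn oil 1 and 2. Both genes had lower values in each TCPOBOP library than in either corn oil library, at log2 fold changes of -4.20 ± 0.83 and -2.38 ± 0.39, but neither was called by edgeR (adjusted p = 0.679 for each). DESeq2 called Egr1 (-4.20, adjusted p = 7.52e-07). Leaving out either corn oil library leaves 1 control, with no replicate of its own, so the spread in these fits comes from the TCPOBOP pair alone and the control is assumed to vary like it. Without the library labelled corn oil 1, 9.35% of 13190 genes and 5 of 10 members were called: Fos (-2.55), Egr1 (-4.90), Jun (0.82), Gadd45b (4.89) and Foxm1 (4.05). Without corn oil 2, 3 were called: Egr1 (-2.78), Jun (-1.67) and Egfr (0.72). Jun, at 55.5 and 9.95 CPM in corn oil 1 and 2, thus changed direction with the corn oil library left out. Atf3, at 4.63 and 1.44 CPM and 1.22 and 2.00 CPM, overlapped between the groups (-0.92 ± 0.65).

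**Figure D3:**
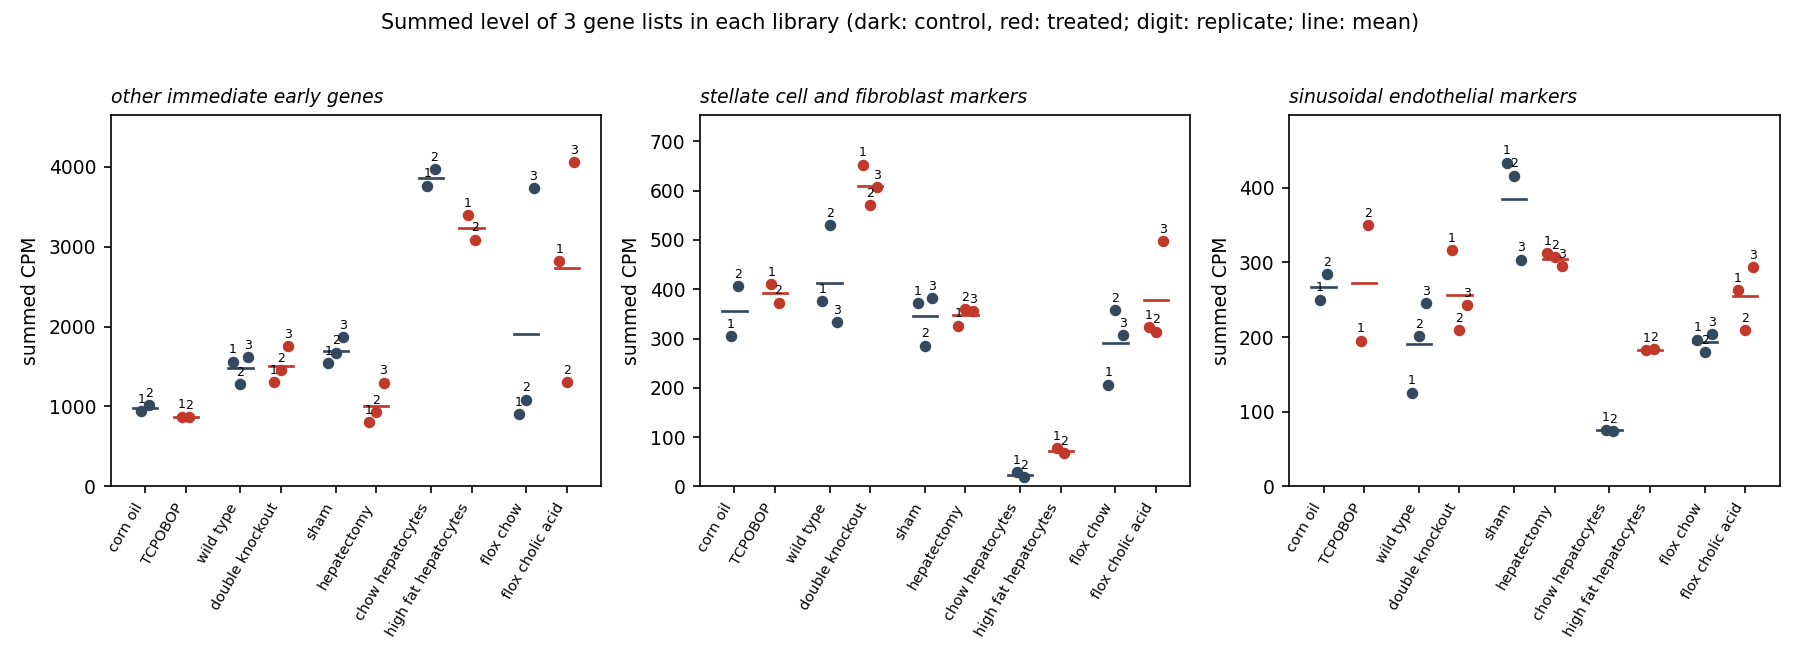
Summed CPM in each library of the 47 other immediate early genes, the 12 stellate cell and fibroblast markers and the 10 sinusoidal endothelial markers, with replicate numbers and group means. The early gene sum is 2820.1 CPM or more in the 4 hepatocyte libraries, flox chow 3 and cholic acid 1 and 3, and the 2 marker sums are lowest in the chow hepatocytes, at 19.2 to 29.2 and 74.1 to 76 CPM.

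Myc, a transcription factor of growth and ribosome production, rose in 1 comparison and fell in 2. It was at 9.13, 6.56 and 5.47 CPM in wild-type and 18.4, 21.5 and 19.1 CPM in double knockout livers, 2.79-fold higher without overlap (1.49 ± 0.18, edgeR adjusted p = 0.000363). In sham livers it was at 63.6, 47.3 and 52.8 CPM, the highest of all 10 groups, and in hepatectomy livers at 13.2, 32.2 and 15.6 CPM, 2.69-fold lower (-1.43 ± 0.31, edgeR adjusted p = 0.0101). No sham library overlapped any library of another group. In hepatocytes Myc was at 6.6 and 9.29 CPM on chow and 2.56 and 3.34 CPM on the high fat diet, 2.69-fold lower (-1.46 ± 0.23, edgeR adjusted p = 0.0117), and in the fit of all 26 libraries it was not called (-1.43, adjusted p = 0.0504). On cholic acid it was at 7.52, 7.65 and 13 CPM against 8.44, 3.12 and 15.8 CPM on chow, which overlap (0.05 ± 0.50, interval -0.94 to 1.03). After TCPOBOP it was at 10.6 and 8.68 CPM against 13.3 and 11.9 CPM (-0.40 ± 0.18, not called).

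Partners and targets of MYC were called in shares near those of all genes in the double knockout livers, where 21.0% of all genes rose and 19.4% fell. Of the MYC network, 3 of 10 genes tested rose there and 1 fell, with Mycl (0.99) and the repressor Mnt (0.90) among those that rose and Mlx the one that fell (-0.27). After hepatectomy, where 16.4% of all genes rose and 14.3% fell, 1 of 12 rose, Mxd3 (5.28), and 4 fell, with Mxd4 (-0.82), Mlxipl (-0.65) and Mxi1 (-0.47) among them. On the high fat diet (12.9% of all genes higher, 11.1% lower) 2 of 11 fell and none rose, and on cholic acid none of 11 was called. Of 22 MYC target genes 3 rose and 6 fell in the double knockout livers, with list median -0.09, and Cad (-0.79), Bop1 (-0.78) and Ldha (-0.69) were among those that fell. After hepatectomy 4 of 22 rose, a share near that of all genes, and none fell. Mcm4 (3.97), a subunit of the replication helicase, Ldha (1.21) and Cad (0.97) were among those that rose. On the high fat diet 1 of 22 rose and 4 fell, and on cholic acid 0 of 22 were called.

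Gadd45b, a stress and growth arrest gene induced by CAR agonists and by injury, rose on cholic acid. It was at 2.15, 5.63 and 8.48 CPM on chow and 32, 27.8 and 98.4 CPM on cholic acid, 9.73-fold higher (3.28 ± 0.62, edgeR adjusted p = 0.0244). All 3 cholic acid libraries lay above all 3 chow libraries, and cholic acid 3 was the highest of all 26 libraries. The call was lost without flox chow 1 (2.91, adjusted p = 0.0598), flox chow 2 (3.31, 0.0949) or cholic acid 3 (2.46, 0.0537), and it held without each of the other 3. In the drug experiment Gadd45b was at 33.8 and 39.2 CPM after TCPOBOP, at 30.4 CPM in corn oil 1 and at 1.22 CPM in corn oil 2. The library labelled corn oil 1 was near the TCPOBOP level, so the log2 fold change of 1.20 ± 1.21 was not called by edgeR, and against corn oil 2 alone, a control with no replicate, the value was 4.89 (adjusted p = 4.16e-05). Gadd45b was low in the surgery experiment, at 0.87, 2.02 and 1.5 CPM in sham and 1.34, 1.45 and 0.676 CPM in hepatectomy livers (-0.35 ± 0.39, edgeR adjusted p = 0.533). Wild-type and double knockout livers overlapped, at 9.96, 7.28 and 14.2 CPM and 9.78, 11.6 and 14.2 CPM (0.20 ± 0.23, interval -0.25 to 0.66). In hepatocytes it was at 12.5 and 4.19 CPM on chow and 3.54 and 3.46 CPM on the high fat diet, not called (-1.28 ± 0.48, edgeR adjusted p = 0.106), and without chow hepatocytes 2 it was lower and called (-1.88, adjusted p = 0.000664). Across libraries Gadd45b thus did not share the high level of Fos and Jun in hepatocytes.

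Hgf, the ligand of MET, rose in hepatocyte preparations of the high fat diet. It was at 1.08 and 0.969 CPM on chow and 4.06 and 3.54 CPM on the high fat diet, 3.7-fold higher (1.86 ± 0.20, edgeR adjusted p = 0.00501). The summed stellate cell and fibroblast markers in the same libraries were 19.2 to 29.2 and 67.9 to 77.8 CPM, the endothelial markers 74.1 to 76 and 182 to 184 CPM and the Kupffer cell markers 45.2 to 47.9 and 77.1 to 86.5 CPM. Of these lists 9 of 11, 10 of 10 and 5 of 8 genes tested rose on the high fat diet and none fell. Of all genes 12.9% rose and 11.1% fell, and the part of these cells in the Hgf result was not tested. Hgf in both diets' hepatocytes was lower than in all whole-liver libraries other than flox chow 1 and 2. In wild-type livers it was at 4.8, 10.8 and 5.35 CPM and in double knockout livers at 16.4, 9.57 and 11.4 CPM, which overlap through wild type 2 (0.85 ± 0.32, edgeR adjusted p = 0.0616). Without wild type 2 Hgf was called (1.32, adjusted p = 0.00811), and the sums of the stellate markers in these livers are those given above. After hepatectomy Hgf was at 9.34, 10.5 and 8.51 CPM against 7.61, 7.33 and 7.78 CPM in sham livers, without overlap, and was not called (0.32 ± 0.12, edgeR adjusted p = 0.0846). On cholic acid it was at 8.03, 5.07 and 16.5 CPM against 1.7, 2.44 and 8.19 CPM (1.27 ± 0.62, edgeR adjusted p = 0.27), and it was called without flox chow 3 (2.25, adjusted p = 0.039). After TCPOBOP the groups overlapped at 7.08 to 8.93 and 6.39 to 8.61 CPM.

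Of 12 genes that activate HGF or inhibit its activation, 5 rose and 1 fell in the double knockout livers. In that comparison 21.0% of all genes rose and 19.4% fell. Plat (4.34), a plasminogen activator, was among those that rose, and Plg, the plasminogen gene, fell (-0.38). Hgfac, which encodes an HGF activating protease, fell after hepatectomy (-1.03) and on cholic acid (-1.11) and rose on the high fat diet (0.43). Beside Hgf, 6 of 14 other growth factor ligands tested rose and 2 fell in the double knockout livers. Nrg1 (4.81), a ligand of ERBB3 and ERBB4, and Btc (1.87), a ligand of EGFR, rose, and Fgf1 (-1.62) and Vegfa (-0.61) fell. After hepatectomy 3 of 14 rose and 1 fell, against 16.4% and 14.3% of all genes. Wnt9b (1.79) and the EGFR ligand Tgfa (0.42) were among those that rose, and Vegfa fell (-0.68). On the high fat diet 3 of 15 rose and 2 fell, against 12.9% and 11.1% of all genes. Btc (1.79) was higher and Tgfa (-0.56) lower there, and on cholic acid none of 12 was called.

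Egfr, the receptor of EGF-family ligands, fell in 3 comparisons. It was at 391, 394 and 393 CPM in wild-type livers and 132, 120.2 and 121 CPM in double knockout livers, 3.16-fold lower (-1.64 ± 0.09, edgeR adjusted p = 4.51e-06). The 3 wild-type values ranged only from 391 to 394 CPM, far above the knockout values. On cholic acid it was at 171, 95.5 and 136 CPM against 954, 536 and 410.0 CPM on chow, 4.73-fold lower without overlap (-2.24 ± 0.35, edgeR adjusted p = 0.013). The highest cholic acid library was below the lowest chow library, and the call was lost without cholic acid 2 (-2.05, adjusted p = 0.0578) or cholic acid 3 (-2.25, 0.0631). In hepatocytes Egfr was at 924 and 806 CPM on chow and 378 and 496 CPM on the high fat diet, 1.98-fold lower (-1.01 ± 0.16, edgeR adjusted p = 0.0115), and in the fit of all 26 libraries it was not called (-0.98, adjusted p = 0.0713). After hepatectomy it was at 704, 437 and 404 CPM against 565, 897 and 881 CPM in sham livers, which overlap, and was not called (-0.60 ± 0.25, edgeR adjusted p = 0.103). It was called without sham 1 (-0.79, adjusted p = 0.0452) or hepatectomy 1 (-0.89, 0.0168), and by DESeq2 (-0.61, 0.037). After TCPOBOP Egfr was at 301 and 335 CPM, with 192 and 341 CPM in corn oil 1 and 2.

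Met, the HGF receptor, was called in 1 of the 5 comparisons, the double knockout. It was at 96.1, 106 and 90.8 CPM in wild-type and 65.2, 62.9 and 62.2 CPM in double knockout livers, 1.54-fold lower without overlap (-0.61 ± 0.09, edgeR adjusted p = 0.00111). After hepatectomy the mean was 98.2 ± 6.94 (SD, n = 3) against 98.3 ± 7.63 (SD, n = 3) CPM in sham livers, with an interval of the log2 fold change from -0.18 to 0.18. In hepatocytes it was at 152 and 129.7 CPM on the high fat diet and 124 and 134 CPM on chow (0.10 ± 0.10, interval -0.10 to 0.30). These 4 hepatocyte libraries had the highest Met levels of all 26. On chow in the bile acid experiment Met was at 51.2, 50.8 and 113 CPM, again with flox chow 3 above the others, and on cholic acid at 79.2, 81.1 and 67 CPM (0.08 ± 0.31). Without flox chow 3 Met was higher on cholic acid (0.57, edgeR adjusted p = 0.0391). After TCPOBOP Met overlapped with corn oil, at 75.6 to 77.7 and 68.3 to 86.1 CPM.

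**Figure D4:**
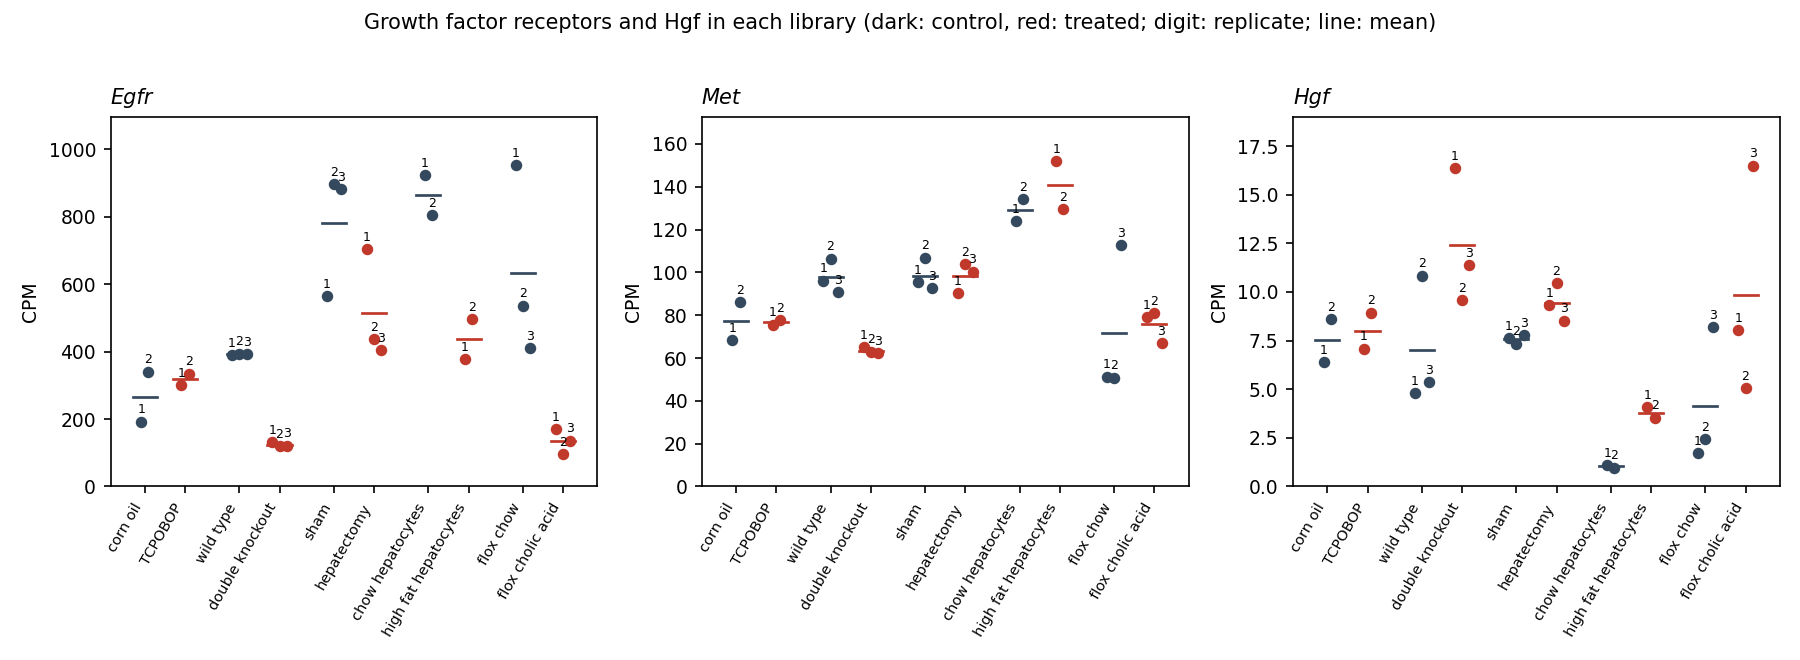
Levels of Egfr, Met and Hgf (CPM) in each of the 26 libraries by group, with replicate numbers and the group mean as a line. The 3 double knockout libraries (120.2 to 132 CPM) and the 3 cholic acid libraries (95.5 to 171 CPM) hold the 6 lowest Egfr levels, and the chow hepatocytes hold the 2 lowest Hgf levels.

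Of the other growth factor receptors 4 of 18 rose and 4 fell in the double knockout livers, shares near the 21.0% and 19.4% of all genes, with Osmr (1.73), the oncostatin M receptor, Axl (1.45) and Fgfr3 (0.82) higher. Il6ra (-1.05), the interleukin 6 receptor, was lower, as were Fgfr4 (-0.47) and its co-receptor Klb (-0.67), which together bind the bile acid responsive hormone FGF15. After hepatectomy 1 of 18 rose, Tnfrsf1a (0.35), and 4 fell (16.4% and 14.3% of all genes), including Il6ra (-0.64) and the insulin receptor gene Insr (-0.54). On the high fat diet 5 of 19 rose and 6 fell (12.9% and 11.1% of all genes), with Erbb4 (1.43), Kdr (1.24) and Axl (1.21) higher and Lgr5 (-1.32), Il6ra (-1.19) and Klb (-0.69) lower. Kdr is also 1 of the 10 endothelial markers, all of which rose in that comparison. On cholic acid 1 of 18 was called, Fgfr2 (1.49), which was higher, against 4.77% of all genes called. Of 28 signal transducers and feedback inhibitors 5 rose and 8 fell in the double knockout livers, against the same 21.0% and 19.4%, and Errfi1 (-1.49), an inhibitor of EGFR, was among those that fell. After hepatectomy 5 of 28 rose, with Spred1 (0.92), an inhibitor of MAP kinase signalling, among them, and 3 fell, Errfi1 (-0.50) among them. On the high fat diet 3 of 28 fell and on cholic acid 1 rose, Spry4 (2.14), a feedback inhibitor of receptor signalling.

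Foxm1, which drives transcription in G2 and mitosis, rose in 3 comparisons from very low control levels. After hepatectomy it was at 23.1, 27.5 and 36.7 CPM against 1.06, 0.789 and 0.835 CPM in sham livers, 32.5-fold higher (5.02 ± 0.23, edgeR adjusted p = 6.46e-06), and these were the 3 highest libraries of all 26. In the double knockout livers it was at 0.649, 0.662 and 0.981 CPM against 0.206, 0.12 and 0.118 CPM (2.32 ± 0.44, edgeR adjusted p = 0.0035), and in the fit of all 26 libraries it was not called (2.31, adjusted p = 0.0841). That rise rested on 54 reads against 8 over the 3 libraries of each group, a depth-scaled ratio of 5.09 with an exact 95% interval of 2.41 to 12.4. On cholic acid it was at 3.43, 5.23 and 3.91 CPM against 0.37, 0.136 and 1.23 CPM on chow (2.85 ± 0.61, edgeR adjusted p = 0.0383), from 247 reads against 24 and a ratio of 7.29 (4.79 to 11.6). All cholic acid libraries were above all chow libraries, but the call was kept only when flox chow 3 was left out (4.03, adjusted p = 0.00494). Without each other library of the experiment the adjusted p was between 0.0881 and 0.116. In hepatocytes Foxm1 was at 0.48 and 0.413 CPM on the high fat diet and 0.0387 and 0.19 CPM on chow, 59 reads against 13, and was not called (1.88 ± 0.60, edgeR adjusted p = 0.0712). Without chow hepatocytes 2 it was called (3.42, adjusted p = 0.0284). The exact intervals of the ratios pool the reads of each group, so they cover counting error only and leave out the spread between libraries. Reads without molecular identifiers are also not independent molecules. After TCPOBOP Foxm1 was at 4.41 and 3.22 CPM, against 6.83 CPM in corn oil 1 and 0.222 CPM in corn oil 2, so the corn oil 1 library was above both TCPOBOP livers.

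Targets of FOXM1 were called higher in all 4 comparisons other than TCPOBOP, and none was called lower. After hepatectomy 20 of 20 tested rose, against 16.4% of all genes, with a median log2 fold change of 5.37 where that of all genes was 0.01, and Cdc20 (6.73), Plk1 (6.52) and Aurkb (6.15), which act in mitosis, among them. In the double knockout livers 11 of 18 rose, against 21.0% of all genes, with a median of 1.21. On cholic acid 9 of 20 rose, against 2.27% of all genes, with a median of 2.24, and the examples are Ccnb1 (3.75), Plk1 (3.24) and Cdc20 (3.13). Without flox chow 3 it was 15 of 20. In high fat hepatocytes 5 of 18 rose, against 12.9% of all genes, although Foxm1 itself was not called. The summed level of all 20 targets was 21.8 to 25.8 CPM on chow and 25.7 to 29.7 CPM on the high fat diet. Stellate, endothelial and Kupffer cell markers also rose in these preparations, and their part in this result was not tested. After TCPOBOP 0 of 20 were called, and against the single library corn oil 2 the list median was 2.92.

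**Figure D5:**
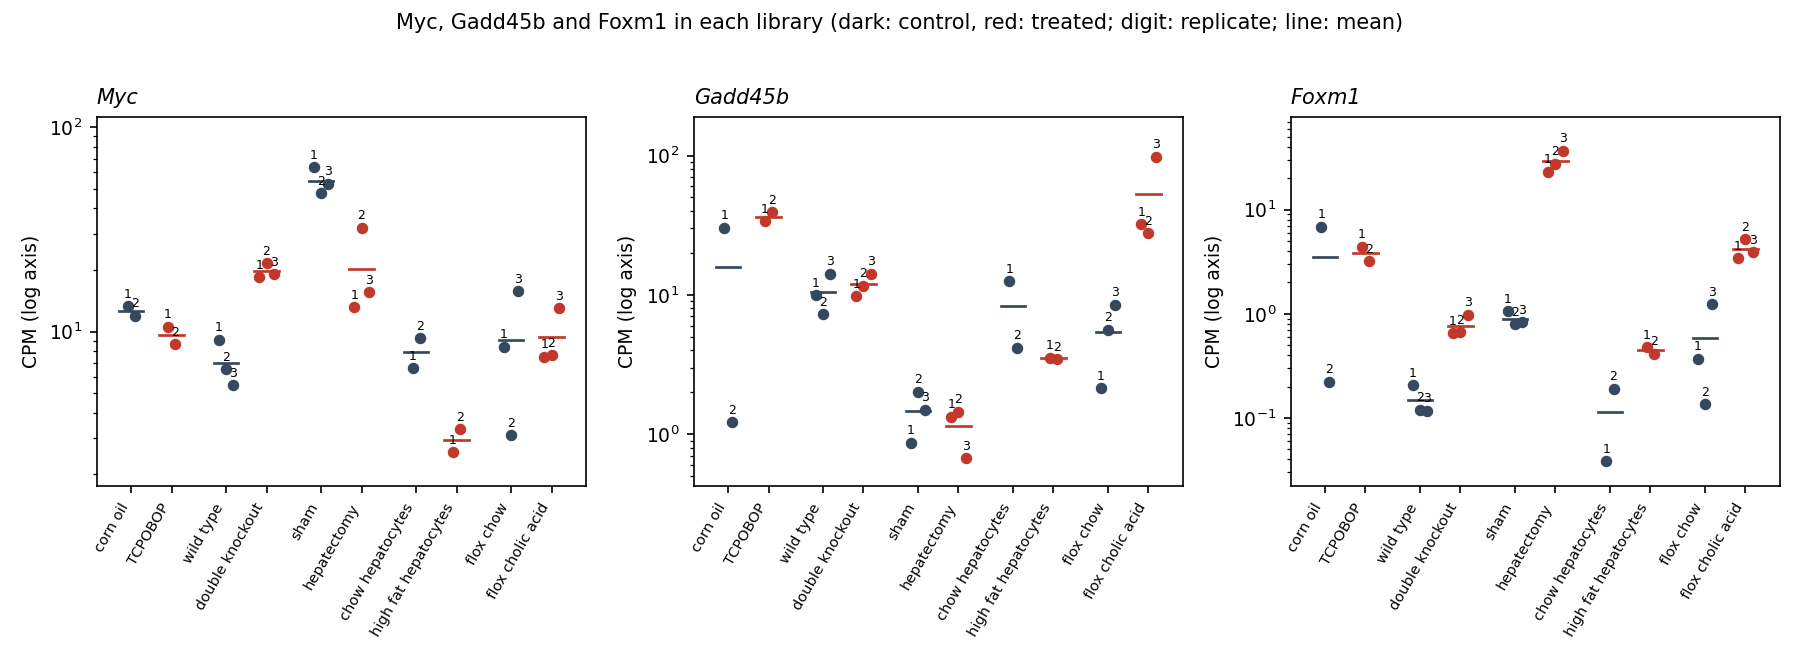
Levels of Myc, Gadd45b and Foxm1 (CPM, log axes) in each of the 26 libraries by group, with replicate numbers and the group mean as a line. Foxm1 is highest in the 3 hepatectomy libraries (23.1 to 36.7 CPM), Gadd45b in the cholic acid and TCPOBOP libraries and corn oil 1, and Myc in the 3 sham libraries (47.3 to 63.6 CPM).

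In the order of the group means, most neighbouring groups overlapped in the spread of their libraries, and the pairs that did not overlap are given here. For Myc sham lay above hepatectomy, the double knockout above corn oil, corn oil above TCPOBOP, and wild type above the high fat hepatocytes. For Jun the chow hepatocytes lay above the high fat hepatocytes, and these above all libraries of flox chow, while all lower neighbours overlapped. For Egr1 chow lay above high fat hepatocytes, and wild type above TCPOBOP, the lowest group. For Fos the high fat hepatocytes lay above cholic acid, and the double knockout, corn oil, wild-type and TCPOBOP groups were each separate from the next at the lower end. For Atf3 the sham, double knockout and hepatectomy groups were each separate from the next, with means of 24.9, 7.31 and 4.54 CPM, and wild type was below TCPOBOP. For Egfr the wild-type group was above TCPOBOP, corn oil above cholic acid, and the lowest pair, cholic acid at 134 ± 37.6 (SD, n = 3) and double knockout at 124 ± 6.59 (SD, n = 3) CPM, overlapped. For Hgf only the 2 hepatocyte groups at the low end were separate. For Met, chow hepatocytes lay above sham and wild type above corn oil. For Foxm1 hepatectomy lay above cholic acid, and high fat hepatocytes above wild type. For Gadd45b TCPOBOP lay above corn oil, and high fat hepatocytes above sham.

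Effects were compared directly between whole-liver experiments with edgeR on 4 groups at a time. Strain, age and feeding differ between the experiments and cannot be told apart from the treatments. The hepatectomy effect also includes the time after surgery, which differs between its groups. Between the double knockout and hepatectomy effects 6 of 10 members differed, against 31.5% of 14755 genes. Atf3 (5.66 ± 0.33), Myc (2.93 ± 0.40) and Egr1 (2.54 ± 0.83) had the higher effect in the double knockout livers, and Foxm1 (-2.67 ± 0.66), Egfr (-1.02 ± 0.28) and Met (-0.59 ± 0.13) had the lower. In the fit of all 26 libraries the differences for Egr1 (2.51, adjusted p = 0.219), Foxm1 (-2.70, 0.189), Egfr (-1.06, 0.0582) and Met (-0.62, 0.119) were not called. Between the hepatectomy and cholic acid effects Gadd45b (-3.63 ± 0.82), Foxm1 (2.16 ± 0.64) and Egfr (1.64 ± 0.46) differed, 3 of 10 against 13.0% of 13985 genes, and Foxm1 was not called in the fit of all 26 libraries (2.16, adjusted p = 0.138). Between the double knockout and cholic acid effects 1 of 10 differed, Gadd45b (-3.07 ± 0.71), against 13.9% of 13935 genes. For Egfr, which fell in both, that difference was 0.61 ± 0.37 with an interval from -0.12 to 1.34, and for Foxm1, which rose in both, it was -0.53 ± 0.96 with an interval from -2.40 to 1.35.

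The genes most like each member in pattern were found by Pearson correlation over the 26 libraries, of log2(CPM + 0.5) with the mean of each experiment removed, among 11387 genes. The libraries share experiment and depth, so these values are a description. Fos was most like Btg2 (r = 0.90), Junb (0.88) and Rgs1 (0.78), Jun like Btg2 (0.84), Dusp1 (0.82) and Fosb (0.80), and Egr1 like Chrna4 (0.83), Junb (0.80) and Btg2 (0.80). Atf3 was most like Actg1 (0.94), Fosb (0.93) and Nr4a1 (0.92). Of these, Btg2, Junb, Fosb, Dusp1 and Nr4a1 are on the list of other immediate early genes. Foxm1 was most like Ckap2l, Mki67 and Cenpe (0.99 each), all genes of dividing cells. Gadd45b was most like Ugt2b34 (0.87), Akr1b7 (0.85) and Ces2a (0.81), which encode enzymes of the metabolism of foreign compounds and lipids. Myc was most like Elovl6 (0.84), Acaca (0.76) and Fasn (0.76), genes of fatty acid synthesis. Egfr was most like Scp2 (0.94), Ctcflos (0.90) and Ugt2b38 (0.90), Met like Nadk2 (0.88), Dclk3 (0.88) and Rpl5 (0.85), and Hgf like Gja1 (0.91), C1qtnf1 (0.89) and Apold1 (0.89).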

How the data were processed

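Messenger RNA of mouse whole liver or isolated hepatocytes was sequenced in 26 libraries of 10 groups. All libraries are in 1 table of raw counts that the authors deposited, with 47643 genes and 5 summary lines for unassigned reads, which were left out of library sizes and tests. Per the labels' protocols, samples were flash frozen, RNA was extracted with an RNeasy kit and libraries were made with a stranded TruSeq mRNA kit. The submitters' processing notes name bcl2fastq 2.17.1.14, Trimmomatic, STAR 2.4.2a, Picard 1.119 and HTSeq, with the builds GRCm38 and mm10. The annotation release and strand setting of the counting are not given in the sources used here, so reads of Jun and its antisense gene may not be told apart.

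Symbols matched 47224 of 47643 identifiers, and 0 columns were left unused. Genes were filtered with filterByExpr at its defaults (count of 10, total of 15), scaled by TMM and tested with edgeR 4.0.16 (limma 3.58.1, R 4.3.3) by the quasi-likelihood F test, each comparison on its own 2 groups. A gene was called at a Benjamini-Hochberg adjusted p under 0.05 over all genes tested. The ± beside a log2 fold change is its standard error, the absolute value divided by the square root of F, and intervals are 1.96 standard errors to either side. The procedure was tested on simulated data.

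The 10 members and 15 gene lists (250 symbols, all matched) were chosen with earlier results of these data known. All members are named. Of each list, the 3 called genes with the largest rise and fall were named, provided that the groups did not overlap and the average log2 CPM was 1 or more, and a few such genes are not reported here. Alternatives were DESeq2 1.42.0 (test, and size factors in edgeR), no filter, all 26 libraries in 1 fit, the replicate number as a block, unscaled CPM, and leaving out each library. List counts without flox chow 3, hepatectomy 3 or corn oil 1 were added after seeing the data.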

Additional observations from a re-analysis of the deposited data

Results flagged for a closer look

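The effect on a member differed between experiments in 10 cases, by edgeR's test of the difference of the log2 fold changes (Benjamini-Hochberg adjusted p under 0.05 over all genes). Between the double knockout and hepatectomy effects the differences were 5.66 ± 0.33 for Atf3 (adjusted p = 1.67e-07), 2.93 ± 0.40 for Myc (0.000148), 2.54 ± 0.83 for Egr1 (0.0329), -2.67 ± 0.66 for Foxm1 (0.00771), -1.02 ± 0.28 for Egfr (0.0145) and -0.59 ± 0.13 for Met (0.00384). Atf3 and Myc had opposite directions in the 2 experiments, higher in 3 of 3 double knockout livers and lower in 3 of 3 hepatectomy livers than in every control. The sham controls were taken at 0 hour and the hepatectomy livers at 48 hours, so operation and time cannot be told apart. Leaving out 1 of the 12 libraries at a time ended the call for Egr1 in 6 of 12 fits and for Foxm1 in 1 of 12.

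Between the hepatectomy and cholic acid effects the differences were -3.63 ± 0.82 for Gadd45b (edgeR adjusted p = 0.013), 2.16 ± 0.64 for Foxm1 (0.0423) and 1.64 ± 0.46 for Egfr (0.0353). The calls for Foxm1 and Egfr were each lost in 8 of 12 fits that left out 1 library. Between the double knockout and cholic acid effects Gadd45b differed by -3.07 ± 0.71 (edgeR adjusted p = 0.0132), and the call held in 12 of 12 such fits. Groups of 2 or 3 libraries were too small for a test of single outlying values.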

How the results depend on the processing

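Of the members' values, DESeq2's size factors left 80 of 80 with the same direction and on the same side of the threshold, DESeq2's test 47 of 50, no filter 77 of 80, 1 fit of all 26 libraries 66 of 80 and the replicate block 45 of 50. On unscaled CPM 85 of 100 group means stayed within 1 SD. DESeq2 called 91 genes and 1 member after TCPOBOP and 1445 genes on cholic acid, and no filter gave 955 genes on cholic acid. In the double knockout DESeq2's test and no filter each called 8 members, 6 higher and 2 lower, among 5155 and 5727 genes called. Atf3 on cholic acid turned to 0.029 with no filter. The fit of all 26 libraries called 9 genes after TCPOBOP, 3 members in the double knockout, 1735 genes and 1 member (Hgf) on the high fat diet, 3132 genes on cholic acid, and 2991 and 2749 genes for the double knockout and hepatectomy effects each against cholic acid. The cause was not tested. Foxm1 had 8 and 54 reads in the wild-type and double knockout groups, 13 and 59 in chow and high fat hepatocytes and 24 in flox chow, which limits its precision.

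Samples with the same replicate number did not deviate together in every experiment (correlations from -0.20 in the double knockout to 0.16 on cholic acid, and each library correlated best with its own number on cholic acid), so the numbers were not taken as pairs. With the replicate block, members called were 0, 7, 3, 4 and 2 in the drug, genotype, surgery, diet and bile acid comparisons. Foxm1 on cholic acid was then not called (3.00, edgeR adjusted p = 0.0561). Fos after hepatectomy turned to -0.58, Met after hepatectomy to 0.00039, and Jun and Atf3 on cholic acid to 0.76 and 1.09, none of them called.

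In the drug and diet experiments leaving out 1 library leaves a group of 1, which is assumed to vary like the other group. Leaving out 1 library at a time gave 0 to 1233 genes and 0 to 5 members called after TCPOBOP, 2554 to 4217 and 3 to 6 after hepatectomy, 1141 to 2644 and 3 to 7 on the high fat diet, 189 to 1345 and 0 to 5 on cholic acid, and 1089 to 2495 genes for hepatectomy against cholic acid. The double knockout kept 7 to 8 members. Log2 fold changes that changed sign ranged as follows. After TCPOBOP they were Jun -1.67 to 0.82, Foxm1 -0.85 to 4.05, Met -0.17 to 0.16, Egfr -0.10 to 0.72, Hgf -0.11 to 0.32 and Atf3 -1.53 to 0.15. After hepatectomy they were Fos -2.43 to 1.11 and Met -0.043 to 0.065. On the high fat diet they were Fos -0.78 to 0.057, Met -0.017 to 0.20 and Atf3 -0.74 to 0.46. On cholic acid they were Myc -0.36 to 0.71, Jun -0.78 to 3.44, Fos -2.47 to 7.04, Egr1 -1.12 to 3.31, Met -0.11 to 0.57 and Atf3 -2.90 to 5.34. For the double knockout effect minus the cholic acid effect they were Jun -3.21 to 1.03, Fos -4.29 to 5.25, Egr1 -1.84 to 2.62, Hgf -1.39 to 0.20 and Atf3 -2.15 to 6.13. For the hepatectomy effect minus the cholic acid effect they were Jun -4.09 to 0.15, Fos -6.67 to 2.88, Egr1 -4.37 to 0.091, Met -0.57 to 0.11 and Atf3 -7.79 to 0.47.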
